A study of Mus musculus with 33 samples.

Results

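Ribosomal protein processed pseudogenes are copies of ribosomal protein mRNAs that were reverse transcribed and inserted back into the genome. The members described here are the gene symbols that start with Rpl or Rps and contain -ps in 4 deposited tables of gene expression from cultured mouse motoneurons. There were 221 such symbols among 37926 records per table, 134 named for the large and 87 for the small ribosomal subunit. Of these, 85 had a value above 0 FPKM (sequenced fragments scaled by transcript length and library size) in any group, and the other 136 were listed at 0 throughout. Each member was set beside its parent, the gene named before -ps, because a copy and its parent can be so alike in sequence that a short read fits both.

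Ribosomes are built from ribosomal RNA and a large set of proteins, most of them encoded by a single active gene with introns. The mRNAs of these genes are short and abundant, and they have left many intronless copies across mammalian genomes. Most copies lack a promoter of their own and carry mutations. A read assigned to one can come from the copy, from the parent or from a transcript that runs across the copy. Ribosomal protein mRNAs are also among the transcripts known to be present in axons.

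The study asked how hnRNP R, an RNA-binding protein, and 7SK, a noncoding RNA known to restrain transcription elongation, bear on the RNA content of motoneuron axons. Primary motoneurons of CD-1 mice were grown in microfluidic chambers, which keep axons apart from cell bodies and dendrites, and total RNA of each side was sequenced. The groups were hnRNP R knockdown axons (3 samples), 7SK knockdown axons (4), GFP control axons (4), hnRNP R knockdown cell bodies (3), 7SK knockdown cell bodies (4) and GFP control cell bodies (4), the cell body side being labelled somatodendritic. The labels do not describe the knockdown method, and the GFP cultures are called controls on the labels alone. A further 11 libraries map the RNA contacts of hnRNP R by iCLIP, an ultraviolet crosslinking and immunoprecipitation method, in motoneurons and in NSC34, a mouse motoneuron-like hybrid line. These comprise 10 libraries from hnRNP R antibodies (Ab1 or Ab2), whole or split into nuclear and cytoplasmic fractions, and 1 from control IgG.

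All FPKM values below are the authors' own, 1 per group and comparison, so they carry no SD and their depth is unknown. Each compartment's hnRNP R and 7SK comparisons share the same GFP controls, whose values differ slightly between the tables. In cell bodies the difference was close to a common scale, in axons less so. The targets were checked first. Hnrnpr had 3.98 FPKM in hnRNP R knockdown axons and 9.93 FPKM in control axons, and 10.8 FPKM in hnRNP R knockdown cell bodies and 27.2 FPKM in control cell bodies. Rn7sk, which encodes 7SK, had 6370 FPKM in 7SK knockdown cell bodies and 9104 FPKM in control cell bodies. Axons labelled 7SK knockdown, however, had 3508 FPKM of Rn7sk and control axons 2708 FPKM, a direction against the label. The authors' deposited q-value for Rn7sk was 0.594 in these axons and 0.00407 in 7SK knockdown cell bodies. Hnrnpr was untested in hnRNP R knockdown axons and had a deposited q-value of 0.310 in the cell bodies. In hnRNP R knockdown cell bodies Rn7sk had 13493 FPKM, against 9892 FPKM in control, with q = 0.00865 in the authors' deposited table. Of 7 motoneuron markers 6 had a record, and their summed level was at most 3.22 FPKM in any group, with Mnx1, Isl2 and Chat listed at 0 throughout. The defining markers of the labelled cell type were thus at or near 0. In the controls of the hnRNP R comparisons, 5 astrocyte and radial glia markers summed to 284 FPKM in cell bodies and 157 FPKM in axons. The sums were 151 and 36.0 FPKM for 5 markers of other neurons and 31.6 and 12.0 FPKM for 5 oligodendrocyte markers. For 3 endothelium markers they were 1.45 and 1.83 FPKM. A summed level of 7 microglia markers was 91.7 FPKM in axons labelled 7SK knockdown and 5.86 FPKM in control axons. In 7SK knockdown cell bodies it was 52.1 FPKM, against 30.6 FPKM in control. The summed level of 6 fibroblast and smooth muscle markers was 342 FPKM in axons labelled 7SK knockdown and 810.3 FPKM in control axons, and 175 FPKM in 7SK knockdown cell bodies and 103 FPKM in control. Within that list, Acta2 had 176 FPKM in axons labelled 7SK knockdown and 543 FPKM in control, while Col1a1 had 46.1 FPKM there and 27.1 FPKM in control. For hnRNP R knockdown, the microglia sum was 13.2 FPKM in axons against 5.75 FPKM in control, and 35.0 FPKM in cell bodies against 33.3 FPKM in control. The fibroblast and smooth muscle sum was 1022 FPKM in hnRNP R knockdown axons against 786 FPKM in control, and 85.7 FPKM in hnRNP R knockdown cell bodies against 112 FPKM in control. The oligodendrocyte sum was 20.7 FPKM in hnRNP R knockdown axons against 12.0 FPKM in control. In axons labelled 7SK knockdown it was 18.6 FPKM against 12.3 FPKM. Cell bodies had 52.2 FPKM in hnRNP R knockdown against 31.6 FPKM in control, and 47.5 FPKM in 7SK knockdown against 29.1 FPKM. Endothelium markers summed to at most 2.39 FPKM in any group. The astrocyte and radial glia sum was 197 FPKM in hnRNP R knockdown axons against 157 FPKM in control. In axons labelled 7SK knockdown it was 140 FPKM against 161 FPKM in control. Cell body sums were 306 against 284 FPKM for hnRNP R and 248 against 261 FPKM for 7SK. In the same order, other neurons had 39.2 against 36.0 and 42.2 against 37.0 FPKM in axons. Their cell body sums were 154 against 151 and 113 against 139 FPKM. The part of these markers in the members' values was not tested. In bulk RNA, fewer cells of a type and less RNA per cell cannot be told apart.

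The members above 0 were spread over 20 chromosomes. RefSeq on GRCm38.p6 holds 84 of the 85, of which 78 are classed as pseudogenes, 5 as transcribed pseudogenes (Rps6-ps4, Rpl14-ps1, Rps19-ps3, Rps15a-ps6 and Rps15a-ps4) and 1, Rpl34-ps1, as protein coding. Their median RefSeq length was 593.5 bp, with a range of 281 to 2063 bp. On the X chromosome lie 33 of all members, of which 7 were above 0. Another 25 of the 85 lie within the span of a RefSeq protein-coding gene, so reads from an unspliced transcript of that gene cannot be told apart from reads of the copy.

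The family sizes differed widely. Rpl31, a large subunit gene, has 22 named copies, of which 9 were above 0. The copies of Rps12, a small subunit gene, number 21, yet the single one above 0, Rps12-ps19, had 1.39 FPKM in control axons in the hnRNP R comparison and was at 0 in the control cell bodies. Rpl21 has 13 copies with 1 above 0, and Rps19 has 13 with 6 above 0. Of the 8 copies of Rpsa, whose protein is also known as the laminin receptor, 7 were above 0. Families with many copies thus did not always have many with a value.

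A few copies carried most of the signal. In any group, 66 members reached 1 FPKM and 25 reached 10 FPKM. Values above 0 in all 6 groups were given for 32 members, in 2 to 5 groups for 20 and in 1 group for 33, and the highest value among these 33 was 3.85 FPKM. The top pair, Rps26-ps1 and Rps6-ps4, made up between 28.3% of the members' summed FPKM, in axons labelled 7SK knockdown, and 48.2%, in hnRNP R knockdown cell bodies.

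Rps26-ps1 lies on chromosome 8 from 107439150 to 107439585 (RefSeq, GRCm38.p6), within Wwp2, a ubiquitin ligase gene. Its level was 259 FPKM in hnRNP R knockdown axons and 186 FPKM in control axons. In axons labelled 7SK knockdown it had 352 FPKM, against 192 FPKM in the controls of that table. The cell body values were 367 FPKM in hnRNP R knockdown and 296 FPKM in control, and 323 FPKM in 7SK knockdown and 273 FPKM in control. Every knockdown group was above its control, and the cell bodies were above the axons in both hnRNP R knockdown and control. The record of Wwp2 itself had 5.05 FPKM in hnRNP R knockdown cell bodies and 4.56 FPKM in control cell bodies, far below the copy.

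Rps6-ps4 lies on chromosome 2 from 75190995 to 75191854, within the RefSeq gene 2600014E21Rik. It had 146 FPKM in hnRNP R knockdown axons and 106 FPKM in control axons, and 129.6 FPKM in axons labelled 7SK knockdown against 109.5 FPKM in control axons. Cell bodies had 164 FPKM in hnRNP R knockdown and 143 FPKM in control, and 160.4 FPKM in 7SK knockdown and 131 FPKM in control. Its parent Rps6, the small subunit protein known as a target of S6 kinases, had between 0 and 2.23 FPKM over the 6 groups. The copy thus stood for almost all FPKM of the pair in every group.

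The other members with a completed test came in at lower levels. Rpl38-ps2 (chromosome 6, 140746919 to 140747216) had 55.3 FPKM in hnRNP R knockdown axons and 42.9 FPKM in control axons, and 110.1 FPKM in axons labelled 7SK knockdown against 44.2 FPKM in control. In cell bodies it had 47.3 FPKM in hnRNP R knockdown and 87.0 FPKM in control, but 117 FPKM in 7SK knockdown and 80.0 FPKM in control. It was below its control in 1 comparison and above it in the other 3. Rpl34-ps1 (chromosome 6, 71124589 to 71125001) had 51.0 FPKM in hnRNP R knockdown axons and 47.4 FPKM in control, and 115 FPKM in axons labelled 7SK knockdown against 48.9 FPKM in control. Its cell body values were 93.0 FPKM in hnRNP R knockdown and 63.5 FPKM in control, and 48.7 FPKM in 7SK knockdown and 58.4 FPKM in control. This copy was below its control only in the 7SK knockdown cell bodies.

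Rpl14-ps1, Rps16-ps2 and Rpl28-ps1 lie within protein-coding genes, namely Trpm4, which encodes a cation channel, Adgrd1, an adhesion receptor gene, and Zranb3, a DNA repair gene. Rpl14-ps1 (chromosome 7, 45324958 to 45325651) had 70.8 FPKM in hnRNP R knockdown axons and 51.0 FPKM in control, and 113 FPKM in axons labelled 7SK knockdown against 52.5 FPKM in control. Its cell body values were 59.2 FPKM in hnRNP R knockdown against 46.6 FPKM in control and 58.4 FPKM in 7SK knockdown against 42.9 FPKM in control, so all 4 knockdown values were higher. Rps16-ps2 (chromosome 5, 129128020 to 129128571) was also higher in all 4. It had 79.9 FPKM in hnRNP R knockdown axons against 49.0 FPKM in control. In axons labelled 7SK knockdown it had 64.8 FPKM against 50.5 FPKM in control. Its cell body values were 43.7 FPKM in hnRNP R knockdown against 35.7 FPKM, and 58.3 FPKM in 7SK knockdown against 32.9 FPKM. Rpl28-ps1 (chromosome 1, 128038527 to 128039022) had 92.9 FPKM in axons labelled 7SK knockdown and 33.3 FPKM in control axons. Its hnRNP R knockdown cell bodies had 35.3 FPKM, below the 42.4 FPKM of their control. The host records of Rpl14-ps1 and Rpl28-ps1 were lower, with 1.45 FPKM for Trpm4 and 1.67 FPKM for Zranb3 in control cell bodies. No value was compared for Adgrd1. Whether unspliced host transcripts add to the values of the copies was not tested.

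**Figure D1:**
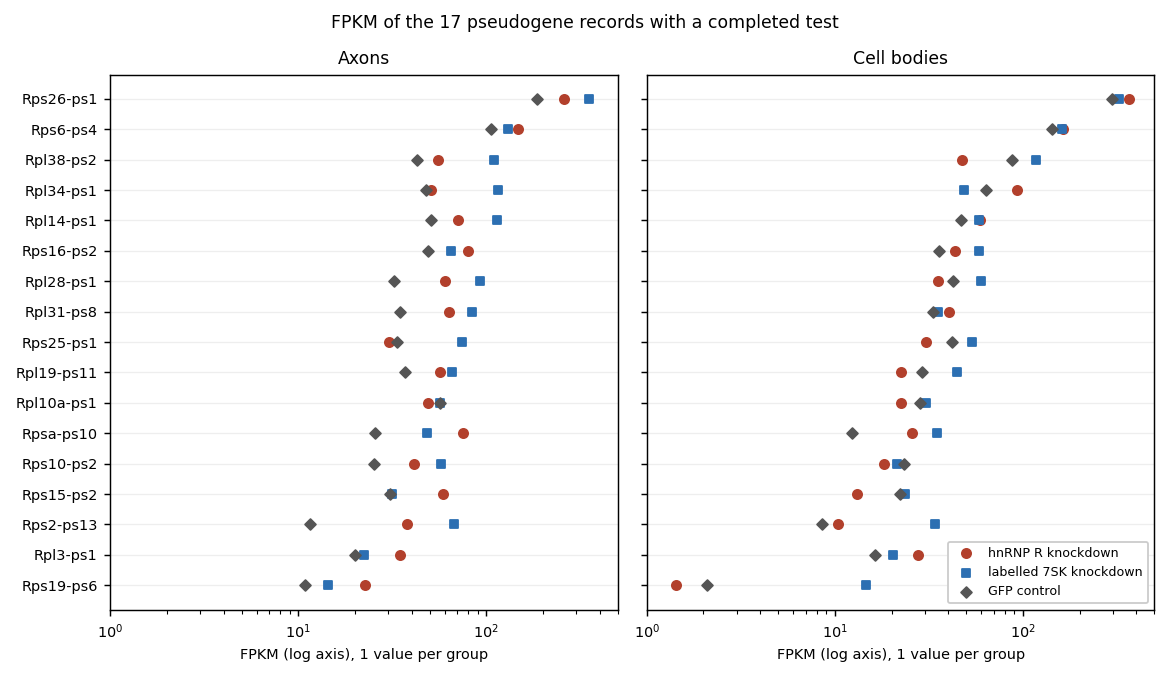
FPKM of the 17 members with a completed test, on a log axis, 1 point per group, for axons (left) and cell bodies (right), with the control values of the hnRNP R tables. In axons most knockdown points lie right of the grey control, while in cell bodies the hnRNP R knockdown points lie on either side of it.

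Among the copies outside protein-coding genes, Rpsa-ps10 and Rps2-ps13 gave the 5 largest log2 ratios among all completed tests of members. Rpsa-ps10 (chromosome 3, 150072590 to 150073617) had 75.0 FPKM in hnRNP R knockdown axons and 25.5 FPKM in control axons, and 48.1 FPKM in axons labelled 7SK knockdown against 26.1 FPKM in control. In cell bodies it had 25.7 FPKM in hnRNP R knockdown and 12.4 FPKM in control, and 35.0 FPKM in 7SK knockdown and 11.4 FPKM in control. All 4 knockdown values stood well above their controls. Rps2-ps13 (X chromosome, 52898559 to 52899511), a copy of a gene for a protein at the entry of the mRNA channel, had 37.6 FPKM in hnRNP R knockdown axons and 11.5 FPKM in control axons. It had 67.4 FPKM in axons labelled 7SK knockdown and 11.7 FPKM in control, and 33.9 FPKM in 7SK knockdown cell bodies and 7.87 FPKM in control. The hnRNP R knockdown cell bodies had 10.4 FPKM, against 8.55 FPKM in control, a pair the authors did not test.

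Rpl31-ps8 had 63.6 FPKM in hnRNP R knockdown axons and 34.9 FPKM in control axons, and 84.0 FPKM in axons labelled 7SK knockdown against 35.8 FPKM in control. Rpl19-ps11 had 56.4 FPKM in hnRNP R knockdown axons against 37.0 FPKM in control, and 65.5 FPKM in axons labelled 7SK knockdown against 38.0 FPKM in control. Rps10-ps2 had 41.1 FPKM in hnRNP R knockdown axons against 25.1 FPKM in control, and 57.2 FPKM in axons labelled 7SK knockdown against 25.8 FPKM in control. All 3 copies were higher in both axonal knockdown groups. Rps25-ps1 had 30.3 FPKM in hnRNP R knockdown axons and 33.4 FPKM in control, but 74.0 FPKM in axons labelled 7SK knockdown and 34.4 FPKM in control. Rpl10a-ps1 was lower in both, with 49.1 FPKM in hnRNP R knockdown axons against 56.7 FPKM in control, and 56.6 FPKM in axons labelled 7SK knockdown against 58.5 FPKM in control. In hnRNP R knockdown cell bodies, Rpl19-ps11, Rps10-ps2, Rps25-ps1 and Rpl10a-ps1 all lay below their controls, with 22.6, 18.3, 30.6 and 22.5 FPKM against 29.0, 23.4, 42.1 and 28.4 FPKM in control. The 7SK knockdown cell bodies had 44.8, 21.5, 53.5 and 30.7 FPKM of these copies against 26.7, 21.6, 38.7 and 26.2 FPKM in control, so that 3 were higher and Rps10-ps2, untested there, was level. Rpl31-ps8 was higher in both cell body comparisons, with 40.3 FPKM in hnRNP R knockdown against 33.0 FPKM in control and 35.2 FPKM in 7SK knockdown against 30.4 FPKM in control.

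Rps15-ps2 had 59.1 FPKM in hnRNP R knockdown axons and 30.8 FPKM in control axons, yet 13.0 FPKM in hnRNP R knockdown cell bodies and 22.1 FPKM in control cell bodies. Rpl3-ps1, a copy of the gene for a large subunit protein near the peptidyl transferase centre, had 34.6 FPKM in hnRNP R knockdown axons against 19.9 FPKM in control, and 27.7 FPKM in hnRNP R knockdown cell bodies against 16.3 FPKM in control. Rps19-ps6, a copy of a gene mutated in Diamond-Blackfan anaemia that lies within Tecpr2, had 22.6 FPKM in hnRNP R knockdown axons and 10.8 FPKM in control axons. The Tecpr2 record had 3.64 FPKM in control cell bodies, above the 2.09 FPKM of the copy there. In hnRNP R knockdown cell bodies Rps19-ps6 had 1.43 FPKM. In axons labelled 7SK knockdown, Rps15-ps2, Rpl3-ps1 and Rps19-ps6 had 31.6, 22.3 and 14.3 FPKM against 31.7, 20.5 and 11.1 FPKM in control. The 7SK knockdown cell bodies had 23.5, 20.3 and 14.7 FPKM of them against 20.3, 15.0 and 1.92 FPKM in control. The authors tested none of these 7SK pairs.

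No member passed the authors' threshold, a q-value under 0.05, in any of the 4 comparisons. In the authors' deposited table for hnRNP R knockdown axons, 0 of 17 members with a completed test were called, beside 0.114% of all records tested. In the authors' deposited table for axons labelled 7SK knockdown the count was 0 of 14 members, beside 3.07% of all records. For hnRNP R knockdown cell bodies it was 0 of 15 in the authors' deposited table, beside 0.975%, and for 7SK knockdown cell bodies 0 of 13, beside 2.51%. Completed tests in all 4 tables existed for 12 members. With the limit at a q-value under 0.1, 1 member was called in axons labelled 7SK knockdown, beside 5.45% of all records, and 2 in 7SK knockdown cell bodies, beside 5.37%, in the authors' deposited tables. At that limit 0 members were called in hnRNP R knockdown axons, beside 0.114%, and 0 in hnRNP R knockdown cell bodies, beside 1.7%, in the authors' deposited tables.

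The unadjusted p-values of the members were unevenly spread over the tables. In either direction, an unadjusted p under 0.05 was given for 9.26% of all records tested in hnRNP R knockdown axons, 18.1% in axons labelled 7SK knockdown, 12.3% in hnRNP R knockdown cell bodies and 15.3% in 7SK knockdown cell bodies, in the authors' deposited tables. Under 0.05 and higher in hnRNP R knockdown axons were 2 members in the authors' deposited table, Rpsa-ps10 and Rps2-ps13, beside 6.29% of all records tested. In the authors' deposited table for axons labelled 7SK knockdown there were 7 of 14, beside 13.6% of all records, namely Rps26-ps1, Rpl38-ps2, Rpl34-ps1, Rpl14-ps1, Rpl28-ps1, Rpl31-ps8 and Rps2-ps13. The ribosomal protein genes had 14 of 32 in that direction in the same authors' deposited table. For hnRNP R knockdown cell bodies the authors' deposited table had 2 higher, Rpsa-ps10 and Rpl3-ps1, beside 5.74%, and 1 lower, Rpl38-ps2, beside 6.54%. For 7SK knockdown cell bodies it had 3 higher, Rpsa-ps10, Rps2-ps13 and Rps16-ps2, beside 8.29% of all records in the authors' deposited table. Lower members at that p were 0 in hnRNP R knockdown axons, beside 2.97%, 0 in axons labelled 7SK knockdown, beside 4.56%, and 0 in 7SK knockdown cell bodies, beside 7.01%, in the authors' deposited tables.

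The 3 smallest q-values belonged to Rps2-ps13 and Rpsa-ps10. Rps2-ps13 had a log2 ratio of 2.52 with an approximate SE of 0.836 (taken from the authors' p-value under a normal distribution) and q = 0.069 in the authors' deposited table for axons labelled 7SK knockdown. In the authors' deposited table for 7SK knockdown cell bodies it had a log2 ratio of 2.11, SE 0.714 and q = 0.0769. Rpsa-ps10 had a log2 ratio of 1.62, SE 0.551 and q = 0.0774 there, and 1.56, SE 0.491 and q = 0.221 for hnRNP R knockdown axons, in the authors' deposited tables. The lowest q-value of a member in hnRNP R knockdown cell bodies was 0.269, again for Rpsa-ps10 with a log2 ratio of 1.06 in the authors' deposited table. For the member at the highest level, Rps26-ps1, the log2 ratios were 0.48, 0.88, 0.31 and 0.24 in hnRNP R knockdown axons, axons labelled 7SK knockdown, hnRNP R knockdown cell bodies and 7SK knockdown cell bodies in the authors' deposited tables, all with q-values of 0.240 or more.

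**Figure D2:**
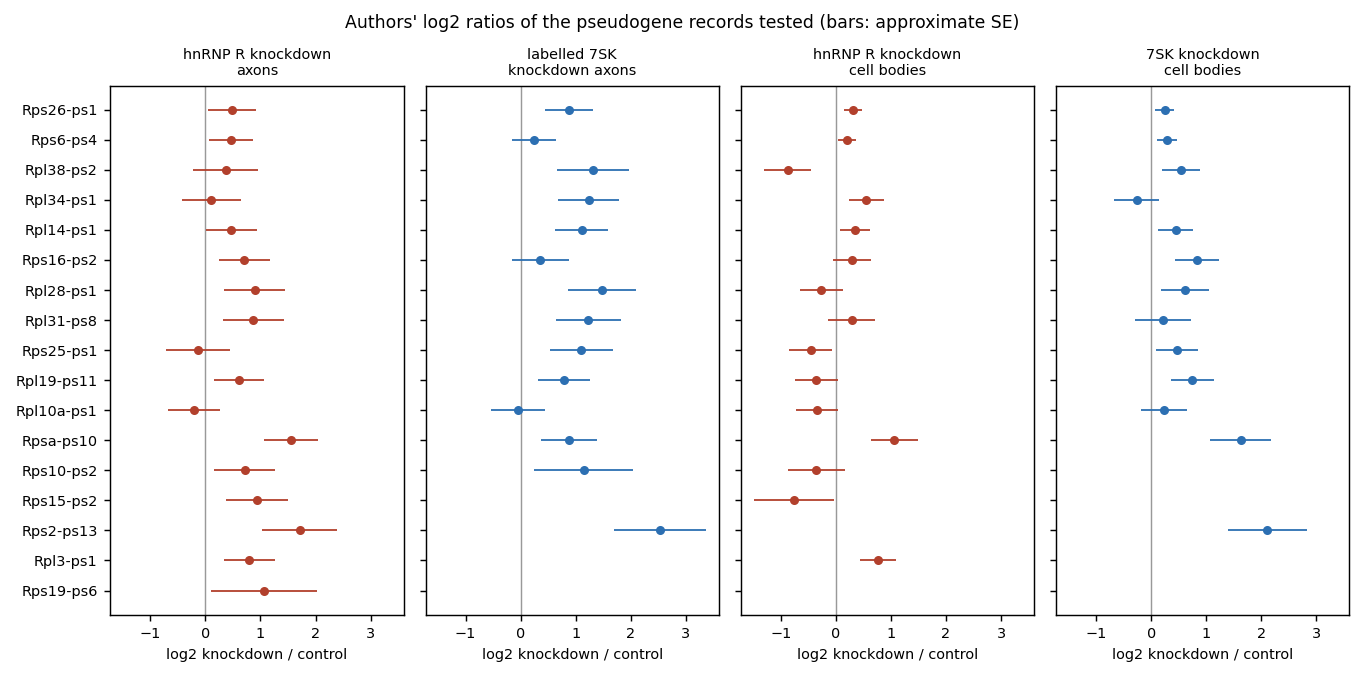
The authors' log2 ratio of knockdown over control for each member tested, 1 panel per comparison, with bars for an approximate SE from the authors' p-value. Points right of the line are higher in knockdown; Rps2-ps13 lies farthest right in the axons labelled 7SK knockdown, at 2.52, and Rpl38-ps2 farthest left in hnRNP R knockdown cell bodies, at -0.88.

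Among members tested, 15 of 17 were higher than control in hnRNP R knockdown axons, 13 of 14 in axons labelled 7SK knockdown, 8 of 15 in hnRNP R knockdown cell bodies and 12 of 13 in 7SK knockdown cell bodies. Of all records tested, 58.6%, 62.2%, 52.7% and 57.1% were higher in these comparisons. No record tested had less than 21.8, 35.5, 20.9 and 27.0 FPKM in its higher group, in the same order. A member can thus enter these counts through a high knockdown value alone. Rps19-ps6, for example, was tested only in hnRNP R knockdown axons, at 22.6 FPKM against 10.8 FPKM in control. The counts of members higher than control therefore depend in part on which records were tested. Taking every member above 0 in either group, the median log2 ratio on FPKM plus 0.1 was 0.48 in hnRNP R knockdown axons (70 members), beside -0.01 over all records. It was 0.77 in axons labelled 7SK knockdown (64 members), beside 0.02, and 0.35 in 7SK knockdown cell bodies (56 members), beside 0.02. The median in hnRNP R knockdown cell bodies was -0.41 (56 members), beside -0.02, and -0.02 over the 41 members with at least 1 FPKM in either group. The medians of the 85 ribosomal protein genes stood at 0.47, 0.65, 0.11 and 0.45 in hnRNP R knockdown axons, axons labelled 7SK knockdown, hnRNP R knockdown cell bodies and 7SK knockdown cell bodies. At 1 FPKM or more, the medians of the members were 0.50, 0.88, -0.02 and 0.47 in that order of comparisons, and those of the genes 0.48, 0.69, 0.13 and 0.53. The widest gap between copies and genes was in hnRNP R knockdown cell bodies over all above 0, but in axons labelled 7SK knockdown at 1 FPKM or more.

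Summed over members, FPKM was 1368 in hnRNP R knockdown axons and 932 in control axons, a ratio of 1.47. In axons labelled 7SK knockdown the sum was 1702, against 959 in control, a ratio of 1.77. Cell bodies had 1102 in hnRNP R knockdown against 1002 in control, and 1241 in 7SK knockdown against 922 in control, ratios of 1.10 and 1.35. The ribosomal protein genes had ratios of 1.59, 1.73, 1.16 and 1.37 in hnRNP R knockdown axons, axons labelled 7SK knockdown, hnRNP R knockdown cell bodies and 7SK knockdown cell bodies. Without Rps26-ps1 and Rps6-ps4 the members' ratios were 1.5, 1.85, 1.01 and 1.46 in that order. With them the members' ratio was above that of the genes in axons labelled 7SK knockdown, and without them also in 7SK knockdown cell bodies. The sums of all FPKM also differed, with ratios of 1.27, 1.19, 1.07 and 1.30 in that order of comparisons, and a single record, Gm26924, held between 36.8% and 47.5% of the FPKM of a group. Members made up 16.5% of the FPKM of members and ribosomal protein genes together in hnRNP R knockdown axons and up to 20.0% in control cell bodies.

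**Figure D3:**
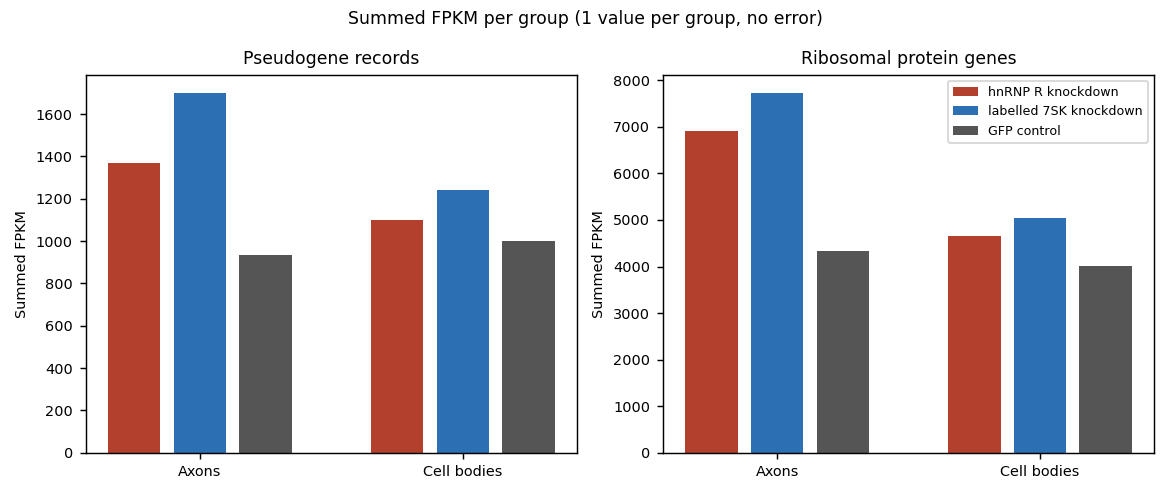
Summed FPKM of the members (left) and of the 85 ribosomal protein genes (right) in each group, 1 value per group with no error. The sums are highest in axons labelled 7SK knockdown, 1702 and 7737 FPKM, and in both panels every knockdown bar is above the control bar of its compartment.

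How a member stood to its parent varied from copy to copy. Of the 25 members that reached 10 FPKM, 15 were above their parent in all 6 groups. For 7 of these parents the record stayed under 5 FPKM in every group, although their proteins are part of every cytosolic ribosome. The genes in question are Rps6, Rpl34, Rps16, Rpl31, Rpl3, Rps13 and Rps23. Rpl34 was listed at 0 in control axons and control cell bodies, while Rpl34-ps1 had 47.4 and 63.5 FPKM there. Rps16 had between 0 and 2.47 FPKM over the groups and Rps16-ps2 between 35.7 and 79.9 FPKM. Rpl31 had between 0.906 and 4.43 FPKM and Rpl31-ps8 between 33.0 and 84.0 FPKM. Rpl3 had at most 0.766 FPKM, and Rps13 at most 0.992 FPKM. A value of 0 for a gene that every cell uses can be a failed estimate, so these parents are given only as listed.

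Other parents stood above their copies. Rps15, a small subunit gene, had between 239 and 521 FPKM over the groups, and Rps15-ps2 between 13.0 and 59.1 FPKM. Rpsa had between 44.9 and 178 FPKM and Rpsa-ps10 between 12.4 and 75.0 FPKM. Rps19, Rpl39, Rps15a and Rpl32 were likewise above the copy in all 6 groups, while Rps2, Rps24 and Rpl18 were above it in 5. Rps10 was also above Rps10-ps1 in 5 groups, though below its copy Rps10-ps2 in all 6. Rps26 and its copy both had high values, the gene between 118 and 267 FPKM and Rps26-ps1 between 186 and 367 FPKM. High values of a copy thus occurred with parents near 0 and with parents above 100 FPKM.

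**Figure D4:**
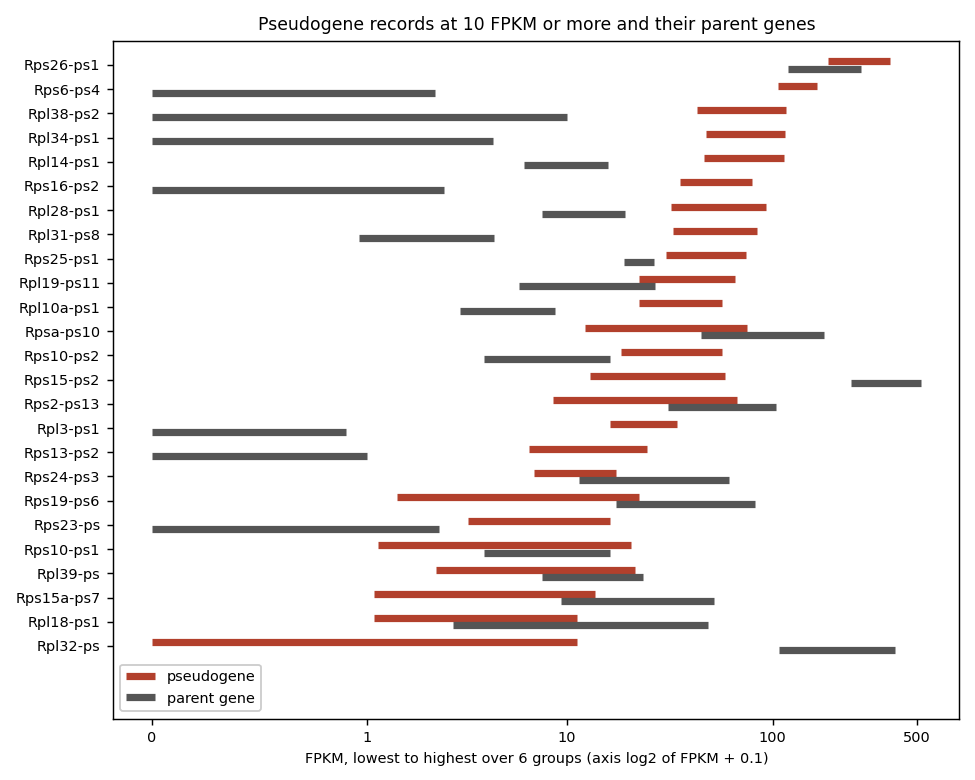
For the 25 members at 10 FPKM or more, the lowest to highest FPKM over the 6 groups for the copy (red) and its parent (grey), on an axis of log2 of FPKM plus 0.1. The bars of Rps6-ps4 and Rps6 lie apart, 106 to 164 against 0 to 2.23 FPKM, while those of Rpsa-ps10 and Rpsa overlap.

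Across all members above 0 in a group, the median level as a percent of the parent was 41.9% in hnRNP R knockdown axons (54 members), 62.2% in axons labelled 7SK knockdown (48) and 38.4% in control axons (59). In cell bodies it was 105% in hnRNP R knockdown (38), 82.6% in 7SK knockdown (39) and 28.8% in control (52). A member whose parent was at 0 counted as above it. Over members at 1 FPKM or more in the group, the medians were 60.5% in hnRNP R knockdown axons, 74.6% in axons labelled 7SK knockdown and 79.2% in control axons, and 131%, 109% and 44.7% in hnRNP R knockdown, 7SK knockdown and control cell bodies. Control axons thus had the lowest of the axonal medians over all members above 0 and the highest over those at 1 FPKM or more. These medians cover different sets of members, as fewer were above 0 in knockdown than in control cell bodies. The 24 ribosomal protein genes with a copy at 10 FPKM or more had a median of 6.89 FPKM in control cell bodies, and 38.2 FPKM once their copies were added. The 61 genes without such a copy had a median of 15.9 FPKM. In control axons the medians were 9.57 FPKM for the 24 genes, 44.9 FPKM with their copies and 12.6 FPKM for the 61. The 24 genes were picked for a high copy, so a rise on adding the copies was fixed by the split.

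Ratios of copies and of their parents showed little relation across pairs. The Pearson correlation of member and parent log2 ratios was 0.10 in hnRNP R knockdown axons (50 pairs), 0.13 in axons labelled 7SK knockdown (49), -0.04 in hnRNP R knockdown cell bodies (38) and 0.12 in 7SK knockdown cell bodies (36). These pairs share libraries and can share reads, and several members can share 1 parent, so the values describe the tables only. Added to its copies, the parent gave a family sum above the control in 33 of 44 families in hnRNP R knockdown axons and in 37 of 45 in axons labelled 7SK knockdown. The count was 28 of 44 in hnRNP R knockdown cell bodies and 36 of 44 in 7SK knockdown cell bodies. Of all records above 0, 49.4%, 50.9%, 48.7% and 51.0% were higher than control in that order of comparisons. Of the ribosomal protein genes above 0, 73.1%, 74.0%, 58.2% and 78.2% were higher. A family sum includes the parent, so these counts do not describe the copies alone.

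Ribosomal protein genes were called in 2 of the comparisons. Rpsa had 178 FPKM in axons labelled 7SK knockdown and 68.2 FPKM in control axons, with a log2 ratio of 1.38 and q = 0.0161 in the authors' deposited table. Its copy Rpsa-ps10 had a log2 ratio of 0.88 and q = 0.326 there in the authors' deposited table. Rps3 rose to 288 FPKM in 7SK knockdown cell bodies, against 89.8 FPKM in control, with q = 0.00407 in the authors' deposited table. Over the 85 genes, 1 of 32 tested passed in axons labelled 7SK knockdown, while 0 of 38 and 0 of 36 passed in the hnRNP R axons and cell bodies, in the authors' deposited tables.

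Members at low levels gave the most extreme ratios, and these were all untested except Rps2-ps13. In hnRNP R knockdown axons Rps15a-ps4 had 3.85 FPKM, Rpl30-ps9 had 2.17, Rpl7l1-ps1 had 1.63, Rpl31-ps11 had 1.14 and Rpl31-ps20 had 1.13, all listed at 0 in control axons. At the other end Rpl32-ps, Rps19-ps10, Rpl35a-ps7, Rps12-ps19 and Rps2-ps9 were listed at 0 in hnRNP R knockdown axons, against 2.58, 2.24, 1.58, 1.39 and 1.36 FPKM in control axons. In axons labelled 7SK knockdown Rpl17-ps1, Rpl27a-ps2, Rpl31-ps9, Rpl31-ps10 and Rps10-ps3 had 3.01, 2.53, 2.49, 2.49 and 2.27 FPKM and were listed at 0 in control axons. Those listed at 0 there were Rpl31-ps17, Rpl31-ps15, Rps19-ps10, Rpsa-ps9 and Rpl35a-ps7, which had 4.54, 2.92, 2.30, 1.78 and 1.63 FPKM in control axons. A ratio against a group at 0 has no size here, and no counts were given to set a limit.

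In hnRNP R knockdown cell bodies Rpl31-ps17 and Rpl31-ps13 had 1.65 and 1.5 FPKM and were listed at 0 in control, while Rps15a-ps7, Rpl39-ps and Rps13-ps2 had 7.68, 7.07 and 16.5 FPKM against 1.09, 2.25 and 6.59 FPKM in control. Rpl18-ps2 was near 0 there, against 5.55 FPKM in control cell bodies. Rpl36-ps2, Rps19-ps9 and Rpl31-ps15 were listed at 0, against 2.46, 1.39 and 1.23 FPKM in control. In 7SK knockdown cell bodies Rpsa-ps11, Rps19-ps6 and Rps10-ps1 had 3.70, 14.7 and 10.8 FPKM against 0.349, 1.92 and 2.13 FPKM in control, and Rps2-ps13, described above, was also among the highest ratios. Rpl18-ps2, Rpl36-ps2, Rpl31-ps11, Rps19-ps9 and Rpl31-ps15 were listed at 0 there, against 5.11, 2.27, 1.41, 1.28 and 1.12 FPKM in control cell bodies. The same control groups serve both knockdowns of a compartment, so these lists are not independent.

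Some copies of a family had equal values. Rpl31-ps9, on chromosome 1, and Rpl31-ps10, on chromosome 4, both had 2.49 FPKM in axons labelled 7SK knockdown and 0 in every other group. Rpsa-ps9 and Rpsa-ps5, on chromosomes 2 and 11, both had 0.749 FPKM in 7SK knockdown cell bodies, and Rpsa-ps12, on chromosome 4, had 0.743 FPKM. No source used here tells how reads that fit several copies were divided among them.

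In the control cultures, axons were set against cell bodies, a comparison the authors did not test and whose sides were scaled in separate tables. The median log2 ratio of axon over cell body was 0.48 over 69 members, and 45 of them were higher in axons. It was 0.09 over 79 ribosomal protein genes and -0.60 over 17332 records of all kinds. The other pseudogenes named with -ps had a median of -0.34 over 102 records. The highest members ran the other way, with 186 FPKM in control axons against 296 FPKM in control cell bodies for Rps26-ps1, and 106 FPKM in axons against 143 FPKM in cell bodies for Rps6-ps4. Rpl38-ps2 had 42.9 FPKM in axons and 87.0 FPKM in cell bodies. Higher in axons were Rpl10a-ps1, with 56.7 FPKM in axons against 28.4 FPKM in cell bodies, Rpsa-ps10, with 25.5 FPKM in axons against 12.4 FPKM in cell bodies, and Rps19-ps6, with 10.8 FPKM in axons against 2.09 FPKM in cell bodies. The members' summed FPKM was 932 in control axons and 1002 in control cell bodies.

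**Figure D5:**
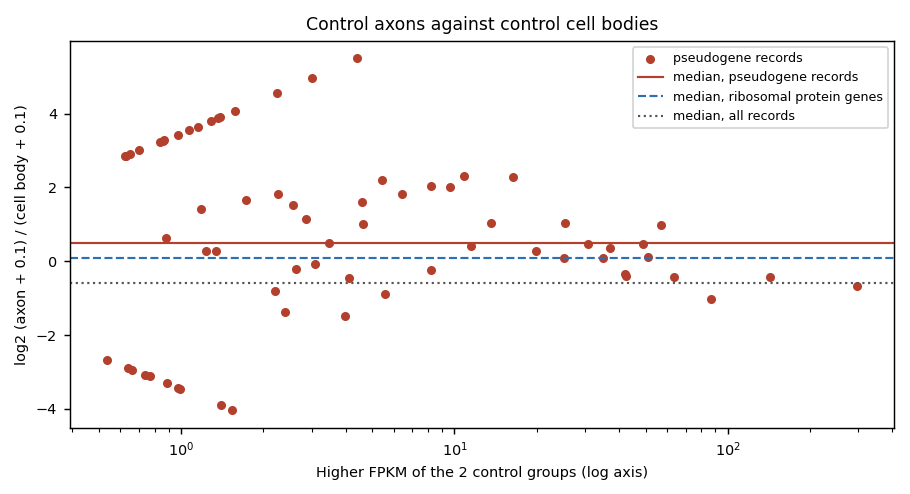
Log2 ratio of control axons over control cell bodies on FPKM plus 0.1 against the higher of the 2 FPKM values, 1 point per member above 0, with lines at the medians of members, ribosomal protein genes and all records. Points in the slanted rows at either end are members at 0 on 1 side, and the median lines lie at 0.48, 0.09 and -0.60.

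The iCLIP tables name genes by an older annotation, in which 14 of the members have an entry, and 4 of these had any cDNA, the count of unique crosslinked fragments. Rpl14-ps1 had 1 and 1 cDNAs in the whole motoneuron libraries and 12 and 4 in the whole NSC34 libraries. The totals of these libraries were 359005 and 319381 cDNAs in motoneurons and 456721 and 99762 cDNAs in NSC34, while the IgG library had 3 cDNAs of the copy in a total of 36280. The cytoplasmic motoneuron library had 1, and the other fractions had none. Rps13-ps1 had 0 and 4 cDNAs in the whole motoneuron libraries, 5 and 4 in the whole NSC34 libraries, 1 in cytoplasmic motoneurons and 0 with IgG, where a count of 0 allows up to 0.00827% of the library. Rplp0-ps1 had 2 cDNAs and Rps13-ps2 had 1, each in a single NSC34 library. The entries of Rps13-ps1 and Rps13-ps2 carry the name of the parent Rps13 with an Ensembl identifier, and no entry was matched to Rps13 itself. Whether they hold cDNAs of the parent was not tested. Rps13-ps1 was not among the members above 0 FPKM in the RNA data. The parent Rpl14 had 0 and 0 cDNAs in the whole motoneuron libraries and 13 and 1 in the whole NSC34 libraries. Members had between 0 and 18 cDNAs per library in all, and the ribosomal protein genes between 0.0373% and 0.265% of a library.

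Only Rpl14-ps1 and Rps13-ps1 had enough cDNAs for the test, and neither passed. Motoneuron over NSC34, Rpl14-ps1 had a log2 ratio of -2.28 and an adjusted p of 0.0793 by edgeR's quasi-likelihood test with Benjamini-Hochberg adjustment. Rps13-ps1 had -0.67 and an adjusted p of 0.684 in the same edgeR fit, in which 37.3% of 9567 genes were called. For hnRNP R over IgG in NSC34, edgeR gave Rpl14-ps1 a log2 ratio of -1.18 with an adjusted p of 0.754, beside 0.533% of genes called. The adjusted p of Rps13-ps1 was 0.744 in that edgeR fit, with no fold given because IgG had 0 cDNAs. The IgG arm is a single library, so a difference from IgG was not detectable for these copies in NSC34 at this depth, and none was tested in motoneurons. For nuclear over cytoplasmic fractions no member had enough cDNAs, and edgeR called 0 of 5177 genes (0%), with 27 at an unadjusted p under 0.05 and 2 called by DESeq2.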

How the data were processed

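RNA values are FPKM, 1 per group, with log2 ratios, test statistics (a score), p-values and q-values as the authors deposited them in 4 tables in the format of Cuffdiff. Cufflinks 2.2.1 and the builds GRCm38 and mm9 are named per the submitters' processing notes. No source used here names the aligner, the strand setting or the treatment of reads with several matches. A record entered the authors' test only where its status was OK. Log2 ratios of all members used FPKM plus 0.1. Table starts match RefSeq (GRCm38.p6) starts after adding 1, for 9295 of 28779 symbols, so coordinates printed are RefSeq's.

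The iCLIP values are cDNA counts per gene on the sense strand, deposited by the authors, and 1309 other columns of these tables were not used. Names were matched by Ensembl identifier (8 members), exact name (4) or RefSeq synonym (2). Counts were tested with edgeR 4.0.16 (TMM, quasi-likelihood, at least 10 cDNAs over the libraries fitted) in R 4.3.3, and with DESeq2 1.42.0 as an alternative; the edgeR code was tested on simulated data. Library totals ran from 2796 to 456721 cDNAs. The limit for a count of 0 is 3 counts and covers counting error only. The labels do not say whether replicate libraries came from separate cultures, so p-values measure the spread between libraries, which may be technical. The header of the IgG file names hnRNP R as its protein and gives the same library identifier as NSC34 replicate 2, against which it was tested, with another experiment number; the library is used as labelled. 

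Members, lists and tests were chosen with earlier results of these data known. Named with values are all members tested, the 10 with the highest mean FPKM, the 5 highest and 5 lowest ratios per table among members at 1 FPKM or more, the parents of the main ones, and members with iCLIP cDNAs. A few records that these rules select are not reported here.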

Additional observations from a re-analysis of the deposited data

How the results depend on the processing

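Of 71 alternatives run on 18 results, 63 moved the value by less than 1.5 times. Some of these could not move it. No member record was merged, so the setting limited to records naming a single gene repeated the reported value. Several iCLIP fits held no member. For a median log2 ratio the limit was a shift of log2 of 1.5. That shift is larger than each reported median except the one in axons labelled 7SK knockdown, so the count does not show that the medians are stable. The count of members called, 0 in each table, became 1 in axons labelled 7SK knockdown and 2 in 7SK knockdown cell bodies at a q-value under 0.1. At an unadjusted p under 0.05 it was 2 in hnRNP R knockdown axons, 7 in axons labelled 7SK knockdown, 3 in hnRNP R knockdown cell bodies and 3 in 7SK knockdown cell bodies. These follow from the looser limits. The median percent of the parent was 79.2% in control axons and 44.7% in control cell bodies over members at 1 FPKM or more, against 38.4% and 28.8% over all above 0. Each group was also rescaled to an equal FPKM total without Gm26924, which shifts all records of a comparison by the same factor. The medians over all records were not rescaled, so the rescaled medians of the members cannot be set beside them. The members' median log2 ratios were then 0.16 in hnRNP R knockdown axons and 0.33 in axons labelled 7SK knockdown. They were -0.46 in hnRNP R knockdown cell bodies and 0.12 in 7SK knockdown cell bodies. FPKM sums without Gm26924 had ratios of knockdown over control of 1.25, 1.37, 1.04 and 1.17 in that order. For control axons over cell bodies the rescaled median was 0.77, and no median changed sign. With 1 FPKM added, and no rescaling, the medians were 0.46, 0.52, -0.35, 0.28 and 0.45 in the same order. In hnRNP R knockdown cell bodies the median of -0.41 was -0.02 at 1 FPKM or more. No member was called in any of 20 iCLIP alternatives. Among these, the fit of motoneuron over NSC34 with a replicate block called 0 members and 3211 genes, against 3566 without it; deviations of equal-numbered libraries correlated at 0.01, so the numbers were not taken to pair the libraries. Leaving out 1 library or pair gave 0 members each time; without NSC34 replicate 1 both members fell under the filter. Over all genes that fit called 1438 by DESeq2, and hnRNP R over IgG called 51 by edgeR, 7 by DESeq2 and 6 without NSC34 replicate 2. No paired analysis was possible for the RNA because the tables hold 1 value per group, and for the same reason no sample could be left out. No group has the 4 values that a check for a sample far from the others needs.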
